A study of Arabidopsis thaliana with 6 samples.

Results

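The proteasome genes of *Arabidopsis thaliana* were compared between seedlings of *mdf-1* and of WT. Members were the protein-coding rows of the deposited gene table whose description holds the words proteasome subunit, 26S proteasome or 26S protease, in any case. The rule found 48 of 32998 genes. By their deposited names, 22 encode the 20S core, with 12 genes for the alpha ring and 10 for the beta ring. Another 22 encode the regulatory particle, with 7 genes for the Rpt ATPases and 15 for the Rpn subunits, and 4 members have descriptions that give no standard subunit. The words of the rule miss 12 genes that the table lists under other descriptions, among them *RPT3*, *RPN10* and *PAG1*, and these were kept apart and are described after the members.

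The 26S proteasome degrades proteins that carry chains of ubiquitin. Its 20S core is a barrel of outer alpha rings and inner beta rings, and the beta rings hold the active sites. The regulatory particle caps the barrel, and its Rpt ATPases unfold a protein and open the gate in the alpha ring while its Rpn subunits bind ubiquitin, remove it and hold the particle together. In Arabidopsis most subunits are encoded by a pair of genes, and the transcription factors NAC53 and NAC78 are known to raise proteasome genes together when proteasome activity is low.

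*mdf-1* carries a T-DNA insertion (SALK_040710) in intron 9 of *MDF*, a homolog of the human splicing factor SART1, in the accession Columbia (Col-0), and WT was Col-0 without the insertion. Whole seedlings of both groups were 12 days old and were grown on MS plates with 1% sucrose in 16 h light at 22°C and 8 h dark at 18°C. RNA-seq libraries of 3 biological replicates per group held 44738352 to 45418026 counts on genes in *mdf-1* and 47175914 to 50088386 in WT. Normalized counts below are read counts divided by the TMM-scaled size of the library and multiplied by the mean scaled size. Levels of different genes are compared as normalized counts per kb of exonic length. Exceptions are shares, sums and ratios of counts and comparisons of raw counts, which are not corrected for length. A gene was called up or down at an adjusted p below 0.05 in edgeR's quasi-likelihood test, with Benjamini-Hochberg adjustment over all 22397 genes that passed the expression filter. These p-values set the difference between the groups against the spread among the 3 libraries of each group, estimated with information shared across genes.

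The *MDF* locus had normalized counts of 3778, 3881 and 3681 in *mdf-1*, against 3112, 2959 and 3032 in WT, a log2 fold change of 0.32 ± 0.05 (SE). The study states that the part of *MDF* before the insertion is still transcribed in *mdf-1*, so the genotype cannot be read from the sum of reads on the locus. Of the 4773 exonic bases of *MDF*, 1207 also lie over exons on the other strand. Whether the counting used strand is not given in the sources used here. Seedling markers differed between the groups. The root hair markers *EXPA7* and *COBL9* had a sum of normalized counts of 153 to 186 in *mdf-1* beside 666 to 815 in WT, and both were called down. The endodermis markers *CASP1* and *SCR* summed to 2005 to 2149 in *mdf-1* and 3160.5 to 3253 in WT, and both were called down, as were both root transporters, *PHT1;1* and *NRT2.1* (598 to 1033 in *mdf-1* and 3539.6 to 4225 in WT). Of the 3 markers of dividing cells, *KNOLLE* and *CDKB2;1* were called down and *CYCB1;1* was not called, with a sum of 2567 to 3120.3 in *mdf-1* and 3219 to 3628 in WT. Of the 4 mesophyll markers, *RBCS1A* was called up, *CAB3* down, and *LHCB1.1* and *RCA* were not called, with a sum of 1.07e+06 to 1.37e+06 in *mdf-1* and 1.10e+06 to 1.17e+06 in WT. No marker of these lists was at 0, and the part of tissue composition in the values below was not tested. In whole seedlings, fewer cells of a type and less RNA per cell cannot be told apart.

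Transcripts of the 20S core rose nearly throughout in *mdf-1*, and those of the regulatory particle were mixed. Of the 48 members, 47 passed the filter, of which 30 were called up, 5 down and 12 not called. Among all tested genes 33.5% were called up and 33.9% down. In the 20S core, 20 of 22 genes were called up and none down by edgeR's test at an adjusted p below 0.05. In the regulatory particle 8 of 22 were called up, 5 down and 9 not called. The median log2 fold change was 0.42 for the core genes, 0.11 for those of the regulatory particle and 0.01 for all tested genes. The particle median was 0.0543 without *mdf-1* replicate 1 and 0.0577 with upper-quartile scaling. The plot of log2 fold changes by class shows the core genes above 0 with 1 exception, and the particle genes spread to both sides. The changes of the core were modest, between 1.13-fold and 1.59-fold among the called genes, and the quartiles of their log2 fold changes were 0.28 and 0.50, beside -0.51 and 0.41 for all tested genes.

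**Figure D1:**
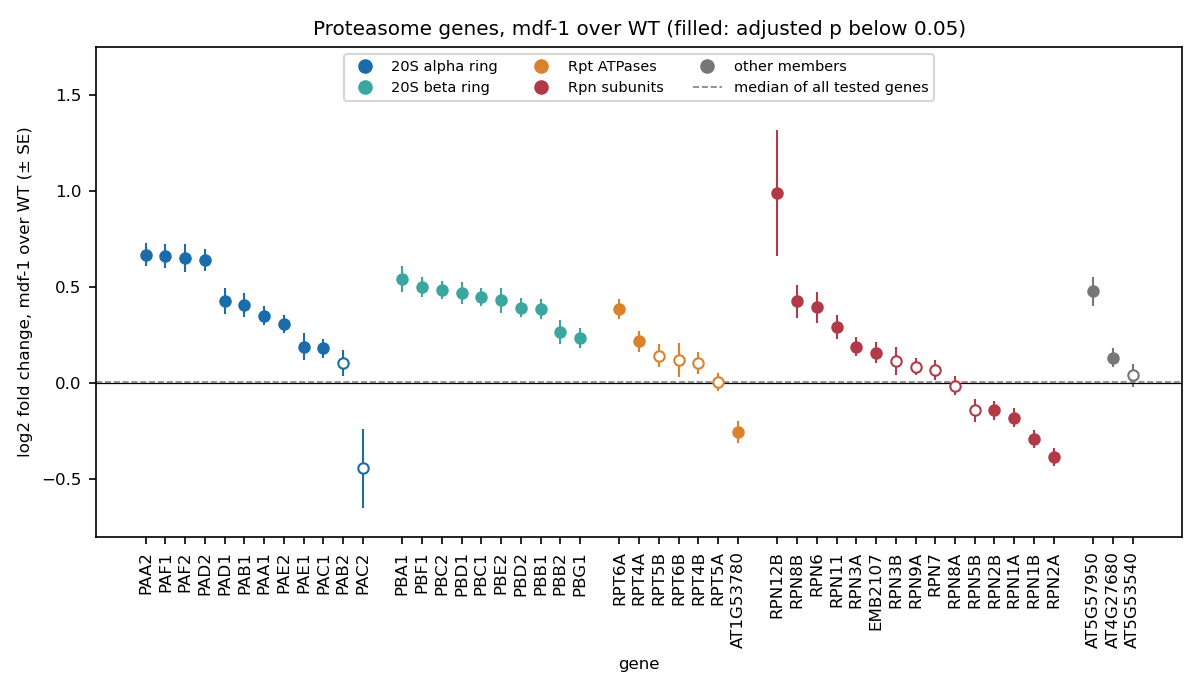
Log2 fold change of *mdf-1* over WT for the 47 tested proteasome genes (vertical axis, points with SE from edgeR), grouped by class and sorted within it. Filled points passed an adjusted p of 0.05, the dashed line is the median of all tested genes at 0.01, and 20 of 22 core genes but 8 of 22 regulatory particle genes are filled above 0.

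The groups did not overlap for 40 of the 47 tested members, with every *mdf-1* library above every WT library for 33 and below for 7. Over all tested genes 36.3% were above and 37.0% below in this way. For the core the counts were 20 above, 1 below and 1 overlapping, and for the regulatory particle 11 above, 6 below and 5 overlapping. Scaled to total counts in place of TMM, the median log2 fold change of all tested genes moved to -0.14. With that shift 16 core genes were called up and 1 down (*PAC2*), and 5 particle genes up and 8 down, while 5561 of all tested genes were called up and 9339 down in place of 7504 and 7585. The genes of core and particle that lost their call were the core genes *PAC1*, *PAE1*, *PBB2* and *PBG1*, and the particle genes *RPT4A*, *RPN3A* and *EMB2107* (adjusted p = 0.251, 0.426 and 0.847, edgeR). Under that scaling 8 core and particle genes that were not called had a log2 fold change of the other sign (*PAB2*, *RPT4B*, *RPT5A*, *RPT5B*, *RPT6B*, *RPN3B*, *RPN7* and *RPN9A*). Of the particle genes not called with TMM, *RPT5A*, *RPN5B* and *RPN8A* were called down.

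The alpha ring forms the outer gate of the core. Its strongest change was in *PAA2* (AT2G05840, chromosome 2, 2234019-2236470), a gene for alpha subunit A, with 6143, 5665 and 5439 normalized counts in *mdf-1*, against 3484, 3739.6 and 3626 in WT. Every *mdf-1* library lay above every WT library, and the rise was 1.59-fold (log2 fold change 0.67 ± 0.06 SE, adjusted p = 3.89e-05, edgeR). Its copy *PAA1* had 5097, 4942 and 5125 normalized counts in *mdf-1*, against 3839, 4076 and 3980.4 in WT, a smaller rise of 1.27-fold, and *PAA1* was the more abundant copy per kb in WT, with 3299 ± 99.3 normalized counts per kb beside 2324 ± 82.2 for *PAA2* (SD, n = 3). In *mdf-1* *PAA1* stood at 4205 ± 82.1 per kb and *PAA2* at 3695 ± 231.

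*PAF1* (AT5G42790), the more abundant of the genes for alpha subunit F and the alpha ring gene with the highest level per kb in *mdf-1*, had 6741, 6674 and 5922 normalized counts in *mdf-1*, against 4183, 4065 and 3978 in WT. *PAF2* (AT1G47250) had 2273, 2067 and 1906 normalized counts in *mdf-1*, against 1283, 1385 and 1313 in WT. Both rose by nearly the same factor, 1.58-fold for *PAF1* and 1.57-fold for *PAF2* (adjusted p = 4.84e-05 and 0.000109, edgeR). Of the 1237 exonic bases of *PAF2*, 805 lie over exons of *GAMMACA2* on the other strand, and whether the counting used strand is not given in the sources used here, so the value of *PAF2* is uncertain. *GAMMACA2* itself had a log2 fold change of 0.35. *PAF1* overlaps no annotated exon.

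*PAD2* (AT5G66140), for alpha subunit D, had 2982, 2857 and 2688 normalized counts in *mdf-1*, against 1828, 1874 and 1763 in WT, a rise of 1.56-fold with no overlap. Its copy *PAD1* rose by 1.35-fold, at 5835 ± 505 in *mdf-1* libraries beside 4335 ± 74.1 in WT libraries (normalized counts, mean ± SD of 3). *PAE2* for alpha subunit E was called up at 1.24-fold. *PAB1*, for alpha subunit B, had 3837, 3488 and 3309 normalized counts in *mdf-1*, against 2676, 2682 and 2662 in WT, 1.33-fold higher. *PAC1*, for alpha subunit C, had 4906, 4837 and 4978 normalized counts in *mdf-1*, against 4299.8, 4457 and 4233 in WT, 1.13-fold higher. All 3 genes had every *mdf-1* library above WT. *PAE1*, the other gene for subunit E, was the weakest call of the ring (log2 fold change 0.19 ± 0.07, adjusted p = 0.0429, edgeR). It lost the call in 5 of the 6 fits with 1 library left out, the exception being the fit without *mdf-1* replicate 3, and with DESeq2 (adjusted p = 0.0553). *PAC1* lost its call without WT replicate 3 (adjusted p = 0.0522).

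The ring held both core genes that were not called. *PAB2* (AT1G79210) had 2502, 2415 and 2150.3 normalized counts in *mdf-1*, against 2104, 2228 and 2236 in WT, and the third *mdf-1* library lay among those of WT. Its log2 fold change was 0.11 ± 0.07 (adjusted p = 0.193), and without that library the call was up (0.16, adjusted p = 0.0285, edgeR). *PAC2* (AT4G15165), a rarely read copy of *PAC1*, had 54.9, 76.2 and 87.1 normalized counts in *mdf-1*, against 107, 90.6 and 98.8 in WT. All 3 *mdf-1* libraries were below those of WT, the difference was not called (log2 fold change -0.44 ± 0.21, adjusted p = 0.0874), and without *mdf-1* replicate 3 it was called down (-0.60, adjusted p = 0.0321), while without *mdf-1* replicate 1 it was -0.27 (adjusted p = 0.237, edgeR). *PAC2* gave 1.11% to 1.72% of the counts of the *PAC1* and *PAC2* pair in *mdf-1* and 1.99% to 2.44% in WT.

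The beta ring carries the proteolytic sites, in Arabidopsis on the subunits PBA, PBB and PBE. All 10 of its members were called up, between 1.18-fold for *PBG1* and 1.45-fold for *PBA1*, and in none did the groups overlap. The shares over all tested genes were 33.5% called up and 36.3% with every *mdf-1* library above every WT library. *PBA1* (AT4G31300, chromosome 4, 15188744-15191217), the single gene for the caspase-like active subunit, had 6241, 5543 and 5367 normalized counts in *mdf-1*, against 3902, 4081 and 3806 in WT. *PBB1* and *PBB2*, for the trypsin-like subunit, were 1.31-fold and 1.20-fold higher in *mdf-1*. *PBE2*, a gene for the chymotrypsin-like subunit, had 1210.4, 1215 and 1094 normalized counts in *mdf-1*, against 855, 908 and 847 in WT, 1.35-fold higher.

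Of the structural beta subunits, *PBF1* (AT3G60820) had the highest level per kb, 5708 ± 214 in *mdf-1* libraries and 4035.5 ± 24.1 in those of WT (SD, n = 3). Its normalized counts were 6592, 6162 and 6203 in *mdf-1*, against 4457, 4447 and 4498 in WT, a rise of 1.41-fold (adjusted p = 6.13e-05, edgeR). The genes of subunit C, *PBC1* and *PBC2*, were 1.37-fold and 1.40-fold higher in *mdf-1*, and those of subunit D, *PBD1* and *PBD2*, 1.38-fold and 1.31-fold. Copies of one beta subunit thus differed by at most 0.12 in log2 fold change. *PBF1* shares 138 of 1107 exonic bases with a gene on the other strand, and *PBB2*, *PBD2*, *PBD1* and *PBG1* share between 12 and 262.

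**Figure D2:**
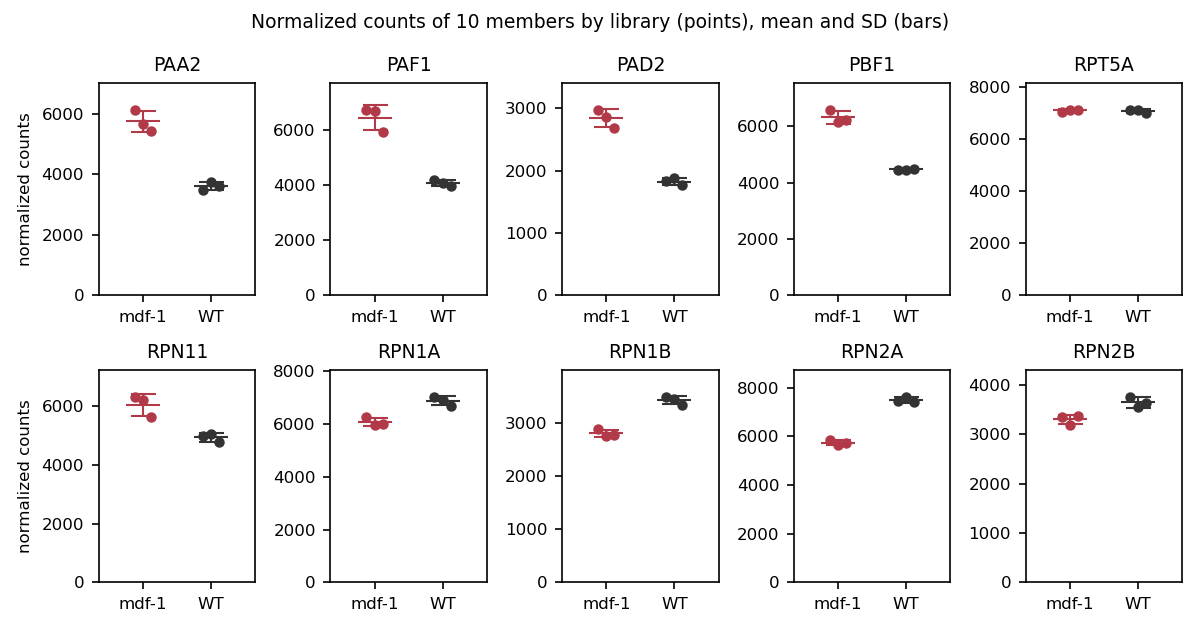
Normalized counts (vertical axes, from 0) of 10 members in each *mdf-1* library (left, red points) and each WT library (right, black points), with horizontal bars for the mean and error bars for the SD. The 3 *mdf-1* points lie above those of WT in PAA2, PAF1, PAD2, PBF1 and RPN11, below them in RPN1A, RPN1B, RPN2A and RPN2B, and among them in RPT5A.

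The Rpt ATPases form the ring that unfolds substrates. Of the 7 members, 2 were called up, 1 down and 4 not called, beside 33.5% up and 33.9% down among all tested genes. *RPT6A* (AT5G19990) had 5722, 5489.6 and 5231 normalized counts in *mdf-1*, against 4219, 4149 and 4198 in WT, 1.31-fold higher (adjusted p = 0.000274, edgeR), and *RPT4A* (AT5G43010) had 2707, 2645 and 2466 normalized counts in *mdf-1*, against 2294, 2262 and 2168 in WT, 1.16-fold higher (adjusted p = 0.00817). Their copies were not called. *RPT6B* (AT5G20000) had 2480.0, 2091 and 1930.4 normalized counts in *mdf-1*, against 2027, 2013 and 1939.9 in WT, with 1 *mdf-1* library far above the others and the lowest below all of WT, a log2 fold change of 0.12 ± 0.09. *RPT4B* (AT1G45000) had 5447, 5021 and 4849 normalized counts in *mdf-1*, against 4731, 4631 and 4891 in WT, where the groups overlapped. The coding sequences of *RPT6A* and *RPT6B* are 94.4% identical and share a run of 104 identical transcript bases, the longest among the pairs, so their counts are the least certain to be kept apart.

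*RPT5A* (AT3G05530), the Rpt member with the highest level per kb, was the member that differed least, with 7052, 7100.3 and 7129.9 normalized counts in *mdf-1*, against 7112, 7110.3 and 7004 in WT and 4158 ± 23.2 normalized counts per kb in *mdf-1* beside 4147 ± 36.2 in WT (SD, n = 3). Its log2 fold change was 0.00 ± 0.05. The sign of this value changed with the scaling. With total counts *RPT5A* was at -0.14 and called down, and the median of all tested genes was also at -0.14. *RPT5B* (AT1G09100) had 1656, 1633 and 1489.5 normalized counts in *mdf-1*, against 1430.4, 1449 and 1447 in WT, all 3 above WT, and missed the threshold (log2 fold change 0.14 ± 0.06, adjusted p = 0.0552). Without *mdf-1* replicate 3 both *RPT5B* and *RPT6B* were called up (adjusted p = 0.0137 and 0.0495, edgeR).

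AT1G53780, described as a 26S proteasome regulatory complex ATPase and given no symbol in the table, was the Rpt member called down. It had 4849, 5130.0 and 5298 normalized counts in *mdf-1*, against 5835, 6275 and 6129 in WT, a fold of 0.838 with no overlap (log2 fold change -0.26 ± 0.06, adjusted p = 0.00401, edgeR). Its coding sequence of 1863 bases was closest to *RPT1A* among the genes of the regulatory particle, at 89.4% identity over 1278 aligned bases. *RPT1A*, which the rule does not take in, was called up, with 10479.8, 9789 and 8647 normalized counts in *mdf-1*, against 8032, 7869.9 and 7946 in WT. The call of *RPT1A* had an adjusted p of 0.0102 and was lost with total counts (adjusted p = 0.127, edgeR). Of its 1984 exonic bases, 320 lie over *SRF6* on the other strand, which had a log2 fold change of 0.25. The value of *RPT1A* is therefore less certain. With TMM the 2 genes were called in opposite directions. AT1G53780 made up 31.6%, 34.4% and 38.0% of their joint counts in *mdf-1*, against 42.1%, 44.4% and 43.5% in WT. The groups did not overlap, and 0.1 is the smallest p that an exact two-sided permutation test of 3 against 3 can give.

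Among the Rpn subunits, the 4 genes of RPN1 and RPN2 were all called down. RPN1 and RPN2 are the large scaffold proteins of the base, and RPN1 also receives ubiquitin shuttles. *RPN2A* (AT2G32730, chromosome 2, 13879959-13885736) had 5858, 5627 and 5740.3 normalized counts in *mdf-1*, against 7472, 7627 and 7400.4 in WT, the lowest log2 fold change among the called members, with a fold of 0.766 (log2 fold change -0.39 ± 0.05, adjusted p = 0.000194, edgeR). *RPN1B* (AT4G28470) had 2882, 2749 and 2760.2 normalized counts in *mdf-1*, against 3485, 3453 and 3331 in WT, a fold of 0.817 (adjusted p = 0.000901). Neither gene had overlapping groups, and neither lost its call in any fit with 1 library left out.

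*RPN1A* (AT2G20580), the more abundant RPN1 gene, had 6249, 5959 and 5982 normalized counts in *mdf-1*, against 7021, 6904 and 6684 in WT, a fold of 0.883 (log2 fold change -0.18 ± 0.05, adjusted p = 0.0129). Without WT replicate 1 it was not called (-0.17, adjusted p = 0.0569). *RPN2B* (AT1G04810) had 3355, 3197 and 3373 normalized counts in *mdf-1*, against 3765, 3553 and 3637 in WT, a fold of 0.906 (log2 fold change -0.14 ± 0.05, adjusted p = 0.0333). It lost the call without *mdf-1* replicate 2, WT replicate 1 or WT replicate 3, with adjusted p between 0.0830 and 0.129 (edgeR). All 4 genes are 3091 to 3517 exonic bases long. In that length range 54.4% of the 840 tested protein-coding genes were called down, with a median log2 fold change of -0.24, and the median of the 4 genes was also -0.24.

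The other 11 Rpn members held 6 genes called up and 5 not called, beside 33.5% up and 33.9% down among all tested genes. *RPN11* (AT5G23540), the deubiquitinase of the lid and the Rpn member with the highest level per kb, had 6316, 6205 and 5612 normalized counts in *mdf-1*, against 4983, 5066 and 4765 in WT, 1.22-fold higher (adjusted p = 0.00309, edgeR). *RPN6* (AT1G29150), which clamps lid and core together, was 1.31-fold higher, at 5098 ± 578 in *mdf-1* libraries beside 3880 ± 29.4 in WT libraries (normalized counts, mean ± SD of 3). *RPN8B* (AT3G11270), for the partner of RPN11, had 1349, 1279 and 1099.6 normalized counts in *mdf-1*, against 870.1, 957 and 949 in WT, 1.34-fold higher, while its copy *RPN8A* (AT5G05780) had 4263, 4549.8 and 4551 normalized counts in *mdf-1*, against 4488, 4599 and 4400.5 in WT and was not called (log2 fold change -0.01 ± 0.05, adjusted p = 0.832). *RPN8A* remained the main copy in both groups.

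Of the lid scaffolds, RPN3 and RPN5 also had 1 called copy each, which is no test of a difference between the copies. For RPN3 the log2 fold changes were 0.19 ± 0.05 and 0.11 ± 0.07. The shares of its copies overlapped between the groups (p = 0.4, exact two-sided permutation test). *RPN3A* (AT1G20200) had 3895, 3768 and 3638 normalized counts in *mdf-1*, against 3332, 3293 and 3279 in WT, 1.14-fold higher (adjusted p = 0.00809), and *RPN3B* (AT1G75990) had 1408, 1228 and 1258 normalized counts in *mdf-1*, against 1157, 1270.1 and 1169 in WT and was not called (log2 fold change 0.11 ± 0.07). For RPN5, *EMB2107* (AT5G09900) had 5668, 5691 and 5433 normalized counts in *mdf-1*, against 5277, 4919 and 4859 in WT, 1.12-fold higher (adjusted p = 0.0302), and *RPN5B* (AT5G64760) had 1006, 990.2 and 937 normalized counts in *mdf-1*, against 1084, 1121 and 1030.0 in WT, lower in all 3 *mdf-1* libraries but not called (log2 fold change -0.14 ± 0.06, adjusted p = 0.0694). *RPN5B* was called down with upper-quartile scaling (-0.19, adjusted p = 0.0184) and with at least 10 counts in every library (-0.16, adjusted p = 0.0383, edgeR). The call of *EMB2107* was lost without *mdf-1* replicate 2, WT replicate 2 or WT replicate 3, with adjusted p between 0.0743 and 0.126 (edgeR). *RPN7* (AT4G24820), another lid scaffold, had 7193, 6818 and 6707 normalized counts in *mdf-1*, against 6429.9, 6665 and 6659 in WT, and *RPN9A* (AT5G45620) had 2669.9, 2648 and 2709 normalized counts in *mdf-1*, against 2526, 2515 and 2522 in WT. Both were slightly above WT in every *mdf-1* library with TMM, below 0 in log2 fold change with total counts, and not called, with adjusted p of 0.271 and 0.120 (edgeR).

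*RPN12B* (AT5G42040) had the largest fold of any member and the fewest reads among those tested. It had 31.8, 40.3 and 63.7 normalized counts in *mdf-1*, against 22.6, 27.4 and 18.5 in WT, from raw counts of 29 to 60 in *mdf-1* and 21 to 29 in WT. The rise was 1.99-fold with a wide error (log2 fold change 0.99 ± 0.33, adjusted p = 0.0257, edgeR), and it was not called without *mdf-1* replicate 3 (0.65, adjusted p = 0.0914), WT replicate 1 (adjusted p = 0.0704) or WT replicate 3 (adjusted p = 0.0894). The copy gave at most 1.40% of the joint counts with *RPN12A* in any library.

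Of the 4 members without a standard subunit, AT5G57950, described as a putative regulatory subunit, had 949, 866 and 806 normalized counts in *mdf-1*, against 641, 639.8 and 602 in WT and was 1.39-fold higher (adjusted p = 0.000775, edgeR). AT4G27680 and AT5G53540 are described as RPT6-like, and the product in the TAIR10.1 annotation is a P-loop nucleoside triphosphate hydrolase. AT4G27680 was called up (log2 fold change 0.13 ± 0.05, adjusted p = 0.0385, edgeR), a call lost with DESeq2 and in 5 of the 6 fits with 1 library left out, and its log2 fold change was -0.01 with total counts. AT5G53540 had 2049, 2074 and 1843 normalized counts in *mdf-1*, against 1966, 1939 and 1892 in WT and was not called (log2 fold change 0.04 ± 0.06). AT4G08140, the member that the filter left out, had no read in any library, which allows a share of up to 6.71e-06% of the counts of the shallowest library (3 counts, counting error only).

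Of the 12 proteasome genes outside the rule 11 were called up, none was called down and *RPT2B* was not called (log2 fold change -0.09 ± 0.05, adjusted p = 0.146, edgeR). The shares over all tested genes were 33.5% called up and 33.9% called down. They were picked from the deposited names with these results known, so their counts are a description. Both core genes among them were called up. Of their 10 particle genes 9 were called up, with a median log2 fold change of 0.35, a higher share and median than the 8 of 22 and 0.11 of the particle members. The strongest were *DSS1(V)* and *DSS1(I)*, small acidic subunits of the lid, at 1.53-fold and 1.46-fold, then *RPT3* at 1.44-fold. *RPT3* had 8943, 8336 and 7781 normalized counts in *mdf-1*, against 5780.1, 5852 and 5788 in WT. *RPN12A*, *RPN13* and *RPN10*, the last 2 ubiquitin receptors, were 1.42-fold, 1.33-fold and 1.21-fold higher, and *PBE1* and *PAG1* of the core 1.38-fold and 1.32-fold. *DSS1(V)* shares 873 of its 937 exonic bases with genes on the other strand, which had log2 fold changes of -0.68 and -0.46, so its value is uncertain. *DSS1(I)* shares 126 of its 984 exonic bases with *TUBA1* on the other strand, which had a log2 fold change of 0.54. Another 96 bases lie over a gene on its own strand, so its value is also less certain. AT4G19006, a PCI domain protein closest to *RPN9A* at 88.1% identity, was 1.15-fold higher, and the call was lost without *mdf-1* replicate 2, WT replicate 1 or WT replicate 3 (adjusted p between 0.0525 and 0.0838). With total counts the calls of *RPT1A*, *RPT2A*, *RPN10* and AT4G19006 were lost and *RPT2B* was called down. With these genes added, 22 of 24 core genes and 17 of 32 particle genes were called up, and 0 and 5 down.

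Summed over its members, the core rose in weight against the particle. Core genes took 0.170% ± 0.00744 of the counts of a library in *mdf-1* and 0.140% ± 0.000773 in WT, and particle genes 0.173% ± 0.00541 in *mdf-1* libraries and 0.187% ± 0.000912 in those of WT (SD, n = 3). All 48 members together took 0.352% ± 0.0130 in *mdf-1* and 0.336% ± 0.000795 in WT. The ratio of core to particle counts was 0.996, 0.980 and 0.965 in *mdf-1*, against 0.742, 0.757 and 0.750 in WT. Per kb of exonic length the ratio was 1.64, 1.61 and 1.60 in *mdf-1*, against 1.26, 1.28 and 1.27 in WT. The groups did not overlap in either ratio, which are sums over chosen genes and were not tested. On the TMM scale the particle sums overlapped, with 87803, 84768 and 82899 normalized counts in *mdf-1*, against 83430, 83773 and 82338 in WT. These shares, sums and ratios leave out the 10 particle genes outside the rule, of which 9 were called up. They therefore do not describe the whole particle.

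When the copies of a subunit were added per kb, with the 12 further genes included and AT1G53780 counted with RPT1 and AT4G19006 with RPN9 by their closest coding sequence, all 14 core subunits stood higher in every *mdf-1* library than in every WT library. The ratios of the means ran from 1.12 for PAC to 1.58 for PAF. Of the 19 particle subunits, 16 were higher in this way, RPN1 and RPN2 were lower at 0.862 and 0.812, and RPN5 overlapped. For single genes, 36.3% of all tested genes were higher and 37.0% lower in this way. The lowest of the 16 ratios was 1.02, for RPT5, and these levels rest on TMM. Sums per subunit were not computed with total counts, which gave lower fold changes. The median level over subunits was 5188 normalized counts per kb in *mdf-1* and 3979 in WT for the core, and 3549.5 in *mdf-1* and 3196 in WT for the particle. Core subunits were unequal by a coefficient of variation of 22.4% in *mdf-1* and 17.0% in WT, so their levels were not closer to each other in the mutant.

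**Figure D3:**
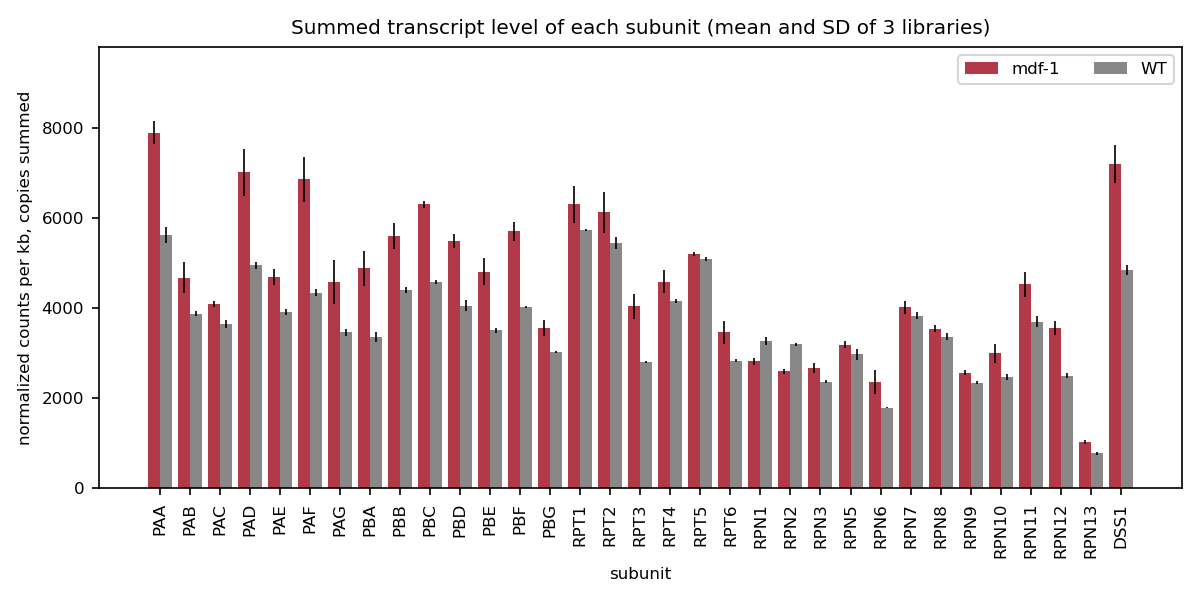
Normalized counts per kb of exonic length for each proteasome subunit, copies summed (vertical axis, bars from 0 with SD of 3 libraries), in *mdf-1* (left bars, red) and WT (right bars, grey). Every core subunit from PAA to PBG is higher in *mdf-1*, and RPN1 and RPN2 are lower.

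Both copies were members for 17 subunits. In 7 pairs both were called up, in 2 both down, in 1 neither, in 7 exactly 1 copy was called, and in no pair were copies called in opposite directions. The share of the second copy did not overlap between the groups in 12 of the 17 pairs. Levels of single genes did not overlap for 36.3% (higher) and 37.0% (lower) of all tested genes, and shares were not computed for other gene pairs. In each of the 12 pairs an exact two-sided permutation test gave p = 0.1, the smallest that 3 against 3 libraries allow. The 17 tests therefore cannot pass a threshold of 0.05. The largest shift was in PAA, where *PAA2* took 54.7%, 53.4% and 51.5% of the pair's counts in *mdf-1*, against 47.6%, 47.8% and 47.7% in WT. These shares are not corrected for length, and per kb *PAA1* remained above *PAA2* in *mdf-1* (4205 ± 82.1 beside 3695 ± 231, SD, n = 3). *PAB2* went the other way, with 39.5%, 40.9% and 39.4% in *mdf-1* and 44.0%, 45.4% and 45.6% in WT.

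In RPN8, *RPN8B* took 24.0%, 21.9% and 19.5% in *mdf-1*, against 16.2%, 17.2% and 17.7% in WT. In RPN2 the copy that fell less, *RPN2B*, took 36.4%, 36.2% and 37.0% in *mdf-1* and 33.5%, 31.8% and 33.0% in WT. Of the 7 pairs with 1 called copy, the called one had the higher raw counts in 5 (*PAB1*, *PAC1*, *RPT6A*, *RPN3A* and *EMB2107*) and the lower in *RPT4A* and *RPN8B*. In PAE, PAF, PBC, PBD and RPN3 the shares overlapped. Coding sequences of the 17 pairs were 80.3% to 94.4% identical, and the longest identical run between transcripts of a pair was 23 to 104 bases, shorter than the reads of 150 bp.

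**Figure D4:**
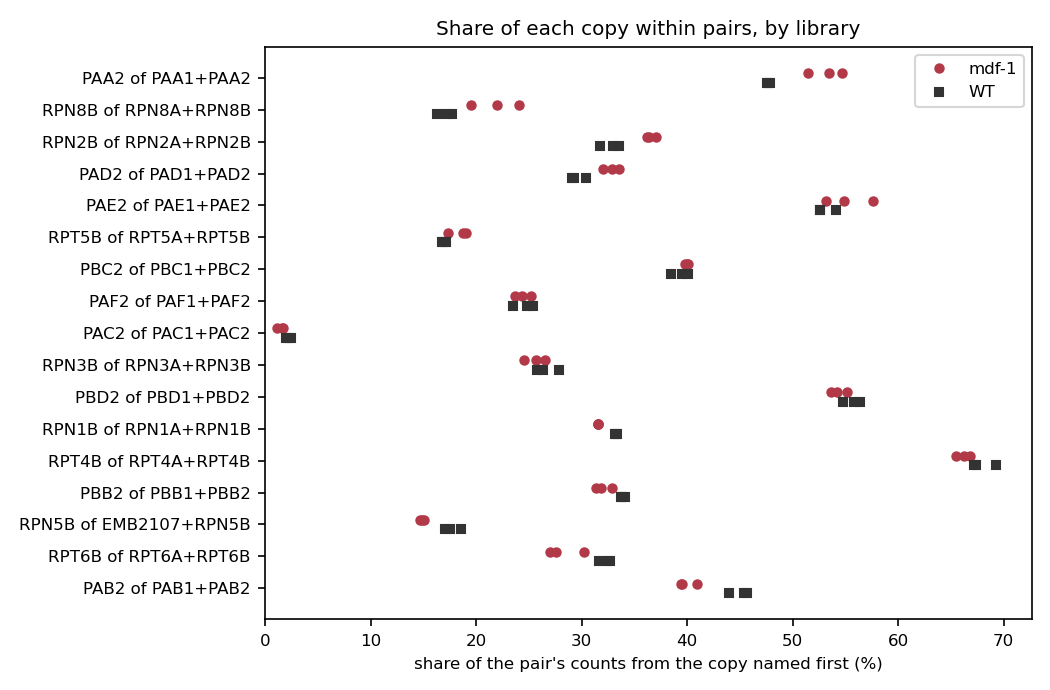
Share of each pair's counts (horizontal axis, percent, from 0) that came from the copy named first on the left, in each *mdf-1* library (red circles, upper) and WT library (black squares, lower), for 17 subunits with both copies among the members. PAA2 lies at 51.5% to 54.7% in *mdf-1* and 47.6% to 47.8% in WT, and pairs run from the largest gain at the top to the largest loss at the bottom.

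The classes differ in length, and length moved with the fold changes. Core members had 872 to 1556 exonic bases and particle members 972 to 3522. Across the 47 tested members, longer genes had lower log2 fold changes (Spearman's rho -0.64, Pearson's r with log2 length -0.63). Within the particle the values were -0.58 and -0.76 over 22 genes, and within the core -0.10 and 0.28. These correlations are across genes of the same libraries and are a description. Over all 21223 tested protein-coding genes the rho was -0.20. Of the 6555 tested protein-coding genes in the length range of the core, 45.1% were called up and the median log2 fold change was 0.19, lower than the 90.9% and 0.42 of the core genes themselves. The 4 particle genes within that length range, *RPT5B*, *RPN8B*, *RPN11* and *RPN12B*, had 3 calls up and none down. The part of length in the difference between core and particle was not tested.

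**Figure D5:**
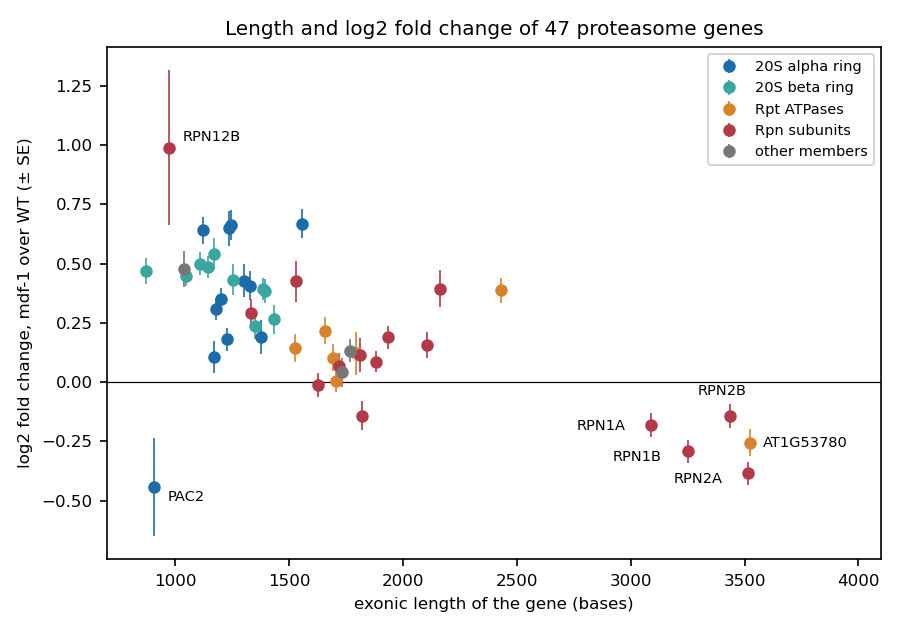
Exonic length in bases (horizontal axis) and log2 fold change of *mdf-1* over WT with SE (vertical axis) for 47 proteasome genes, coloured by class. The core genes lie between 872 and 1556 bases and mostly above 0, and the 5 genes called down lie between 3091 and 3522 bases.

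Numbers of introns showed a similar order across the members (Spearman's rho -0.55 over 47 genes). The rho was -0.73 within the particle, -0.32 within the core and -0.05 over 21147 tested protein-coding genes, and Pearson's r within the core was -0.10. In the TAIR10.1 annotation *PAF1*, *PAF2*, *PAC1* and *RPN6* have 1 intron, *RPN2A* and *RPN2B* 12, AT1G53780 14, and *RPN1A* and *RPN1B* 22. *PAA2*, the core gene that rose most, has 8, and *PAB1*, also called up, has 11. The 9 members with 1 or 2 introns had a median log2 fold change of 0.47 and 8 calls up, beside 0.10 and 39.3% called up for the 5316 tested protein-coding genes of that range. The 9 with 10 or more introns had a median of -0.14, with 2 calls up and 5 down, beside -0.21 for 3326 genes, of which 17.8% were called up and 51.7% down. In the middle range of 3 to 9 introns the 29 members had a median of 0.26 with 20 calls up and none down, beside 0.08 and 39.5% called up for 9061 genes. No tested member lacks introns, and the 3444 tested protein-coding genes with 0 introns had a median of -0.14, outside that order. Gene counts do not show how far introns were retained in these transcripts.

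Promoters were read because core genes moved together, and because the letters TGGGC, on either strand, form the core of the proteasome-related cis-element that NAC53 and NAC78 bind. The 250 bases before the annotated start were searched. TGGGC was found in 25 of 48 member promoters, in 13 of 22 of the core and 10 of 22 of the particle, and in 22.7% of 27443 promoters of protein-coding genes. TGGGCC, which contains it, was in 19 of 48 and in 13.7% of all, and the telo-box AAACCCTA, on either strand, in 3 of 48 and 4.49% of all. In the 21166 promoters of tested protein-coding genes the shares were 25.1% for TGGGC, 15.9% for TGGGCC and 3.57% for AAACCCTA. The 12 proteasome genes outside the rule had TGGGC in 4 promoters, TGGGCC in 3 and AAACCCTA in 0. By call among the members, TGGGC was in 17 of 30 promoters of genes called up, 4 of 5 of those called down and 4 of 12 of those not called. Of the 48 windows, 31 hold no exon of another gene, and 17 of these have TGGGC. Windows of *PBA1* and *PBB1*, active subunits that rose, and of *RPN1A* and *RPN1B*, which fell, are shown because all 4 hold several matches. The sequences are from the RefSeq TAIR10.1 genome, 5′ to 3′ on the strand of the gene and ending at the base before its start, with TGGGC and its complement GCCCA in capitals. The windows are chr4:15188494-15188743 (+) for *PBA1*, chr3:10152208-10152457 (+) for *PBB1*, chr2:8858712-8858961 (+) for *RPN1A* and chr4:14072583-14072832 (-) for *RPN1B*.
PBA1: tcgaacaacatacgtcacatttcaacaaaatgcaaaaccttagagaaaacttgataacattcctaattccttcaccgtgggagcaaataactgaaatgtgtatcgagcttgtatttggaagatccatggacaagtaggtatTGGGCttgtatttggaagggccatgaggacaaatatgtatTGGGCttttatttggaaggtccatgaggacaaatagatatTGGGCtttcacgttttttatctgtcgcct
PBB1: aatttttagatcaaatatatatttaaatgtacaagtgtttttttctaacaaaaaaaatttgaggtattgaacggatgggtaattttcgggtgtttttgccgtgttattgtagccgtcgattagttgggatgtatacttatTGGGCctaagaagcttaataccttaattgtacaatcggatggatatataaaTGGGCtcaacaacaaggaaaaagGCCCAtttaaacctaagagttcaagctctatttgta
RPN1A: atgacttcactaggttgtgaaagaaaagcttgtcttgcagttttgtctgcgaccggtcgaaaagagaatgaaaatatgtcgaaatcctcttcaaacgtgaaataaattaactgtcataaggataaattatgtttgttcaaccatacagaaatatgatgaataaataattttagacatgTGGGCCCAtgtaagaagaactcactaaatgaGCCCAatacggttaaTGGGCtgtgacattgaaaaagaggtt
RPN1B: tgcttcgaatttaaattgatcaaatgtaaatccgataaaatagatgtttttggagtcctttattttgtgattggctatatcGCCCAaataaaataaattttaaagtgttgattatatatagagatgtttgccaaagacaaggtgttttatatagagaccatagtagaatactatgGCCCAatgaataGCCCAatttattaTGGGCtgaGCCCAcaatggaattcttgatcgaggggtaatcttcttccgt
*PBA1* and *PBB1* have 3 matches each, *RPN1A* 4 and *RPN1B* 5. Among the 4 core genes with the largest folds, *PAA2* and *PAF1* have none in this window and *PAF2* and *PAD2* have 2 each. *RPN2A*, the called gene with the lowest fold, has none, and *PAC2*, lower still but not called, has 3. A match is a description of letters only.

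Genes that act with the proteasome were taken from lists chosen by role. Of 6 tested genes for assembly, activation and regulation, 2 were called up and 2 down, near the 33.5% and 33.9% of all tested genes. *UMP1* (AT1G67250), the maturation factor of the 20S core, had 2821, 2525 and 2680.5 normalized counts in *mdf-1*, against 1898, 1748 and 1738 in WT, 1.49-fold higher (adjusted p = 8.94e-05, edgeR), in the range of the core genes. The proteasome activator *PA200*, which caps the core in place of the regulatory particle, had 2833, 2397 and 2311 normalized counts in *mdf-1*, against 4235, 4502 and 4518 in WT, a fold of 0.569 (adjusted p = 5.74e-05). AT2G26780, an ARM repeat protein entered in the list as the proteasome adaptor ECM29 and not so annotated in the table, had a fold of 0.620. *PA200* and AT2G26780 are 5907 and 5956 exonic bases long. *NAC78* was called up at 1.22-fold, and *NAC53* was not called, with 1962, 1797 and 1824 normalized counts in *mdf-1*, against 1839, 1533 and 1725 in WT. *PTRE1*, a regulator of the proteasome, was not called (log2 fold change 0.13 ± 0.06), except without *mdf-1* replicate 2 (0.17, adjusted p = 0.0428). The other UMP1 gene, AT5G38650, had no read in any library, and 737 of its 789 exonic bases lie over *APE1* on the same strand.

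Of 7 receptors that carry ubiquitylated proteins to the proteasome, 4 were called up and none down, beside 33.5% and 33.9% of all tested genes. These were *RAD23B* (1.35-fold), *RAD23D* (1.24-fold), *DSK2B* (1.22-fold) and *DDI1* (1.13-fold). *DDI1* lost its call without WT replicate 2 or WT replicate 3 (adjusted p = 0.0503 and 0.0635, edgeR). Of the 4 deubiquitinating enzymes, *UCH2* was called up at 1.50-fold, with 2082, 1995 and 1989 normalized counts in *mdf-1*, against 1303, 1406 and 1347 in WT, and *UBP6*, *UBP7* and *UCH1* were not called. The unfoldase gene *CDC48A* was not called, at 21531 ± 1490 in *mdf-1* libraries beside 20803 ± 445 in WT libraries (normalized counts, mean ± SD of 3). The genes named *CDC48D* and *CDC48E* in the table were 1.31-fold and 1.40-fold higher, and *CDC48B* and *CDC48C* stood at folds of 0.729 and 0.801, both called down.

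Of 5 polyubiquitin genes 4 were called up, and among all tested genes 33.5% were called up and 33.9% down. *UBQ10* had 125644, 120578 and 107987 normalized counts in *mdf-1*, against 66756, 66373 and 63334 in WT, 1.80-fold higher, and *UBQ11*, *UBQ4* and *UBQ14* were 1.47-fold, 1.33-fold and 1.23-fold higher. These genes are made of near-identical repeats, so reads may be split between them and their values are uncertain. *UBQ3* and the genes of the ubiquitin-activating enzyme, *UBA1* and *UBA2*, were not called. The COP9 signalosome, a complex related to the proteasome lid that removes NEDD8 from cullins, had 9 of 10 genes called up and none down, with a median log2 fold change of 0.38. *CSN8* was strongest, with 2084, 2002 and 2008 normalized counts in *mdf-1*, against 1225, 1191 and 1260.3 in WT, 1.66-fold higher (adjusted p = 1.15e-05, edgeR), and *CSN5B*, the rarer copy of the catalytic subunit, was not called. With total counts the calls of *CSN1*, *DDI1* and *CDC48D* were lost, and *RAD23C*, *UBP7* and *UBA2* were called down.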

How the data were processed

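RNA-seq was done on 3 *mdf-1* and 3 WT samples, grouped by their labels. The authors deposited raw read counts per gene, and the submitters' processing notes name fastp, HISAT2, featureCounts and the TAIR10 build. Tool versions, the strand setting and the treatment of reads with several matches are not given in the sources used here. The deposited table also holds FPKM values, counts scaled by size factors, and the authors' comparison of the groups (fold changes and p-values), none of which was used. Its gene length column was used for levels per kb. The 165 rows with no annotation, 0.182% to 0.211% of the counts, stayed in.

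Counts were fitted with edgeR 4.0.16 (limma 3.58.1, R 4.3.3), using filterByExpr, TMM, a robust quasi-likelihood fit with genotype as the only term, and Benjamini-Hochberg adjustment over all tested genes at 0.05. On simulated counts of 3 against 3 libraries with 22233 tested genes, 61 of 100 genes changed by a log2 of 0.5 and 99 of 100 changed by 1 were recovered, with 11 false calls. The simulation changed only 200 genes and gave all genes the same dispersion, whereas 7504 genes were called up and 7585 down in the data. Its rates therefore do not give the share of real changes that the test found. Libraries held 44738352 to 50088386 counts, and limits for 0 counts cover counting error only. Python 3.11.15, scipy 1.17.1, Biopython 1.88 and matplotlib 3.10.9 were used for the other steps. Introns, overlaps, coding sequences and promoters came from RefSeq TAIR10.1, in which 32548 genes matched by identifier, 99.95% of them with the same start and end. Overlaps with other genes' exons of 100 bases or more were looked up by gene.

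The members and lists were chosen with earlier results of these data known. Values per library are given for *MDF*, the 5 called members that rose most and the 5 that fell most by log2 fold change, the most abundant member per kb of each class, members not called in the direction of their class, pairs with 1 called copy or with opposite calls, members that failed the filter, and called genes of the pathway lists, in part as folds. *PAA1*, *PBA1*, *PBE2*, *AT5G57950*, *RPT1A* and *RPT3* were added after their values were seen. Alternatives were scaling by RLE, by the upper quartile or by total counts, a fit of all genes with reads, a minimum of 10 counts in every library, protein-coding genes only, a replicate block, each library left out, an adjusted p of 0.01, and DESeq2 1.42.0.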

Additional observations from a re-analysis of the deposited data

How the results depend on the processing

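The median log2 fold change of the core was above that of the particle under all 15 alternatives run. With total counts the median log2 fold change was -0.14 for all tested genes, 0.0908 for the proteasome genes, 0.27 for the core and -0.0353 for the particle, and with upper-quartile scaling it was -0.0454 for all tested genes. With total counts 9 proteasome genes were called down, 1 of the core and 8 of the particle, and 5 of the particle up. At an adjusted p of 0.01 there were 3 proteasome genes down, all 3 of the particle. With 1 library left out, 3 to 6 proteasome genes were down, 0 to 1 of the core and 3 to 5 of the particle, and the count of 3 came without WT replicate 1 and the count of 6 without *mdf-1* replicate 3. The cause was not tested.

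Signs changed for genes near 0. With total counts the log2 fold change was -0.0397 for *PAB2*, -0.0411 for *RPT4B*, -0.0294 for *RPN3B*, -0.0758 for *RPN7*, -0.0582 for *RPN9A*, -0.14 for *RPT5A*, -0.00199 for *RPT5B* and -0.0240 for *RPT6B*. *RPT5A* was also at -0.000516 with RLE, -0.0469 with upper-quartile scaling, -0.0179 with at least 10 counts in every library and -0.00122 with DESeq2. With 1 library left out it ran from -0.00616 to 0.00963 for *RPT5A* and from -0.0353 to 0.0185 for *RPN8A*. The shift in share of the pair, in percentage points, ran from -0.716 to 0.258 for *PAF2* and from -0.752 to 0.0359 for *PBE2*.

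With the replicate block 28 proteasome genes were called up and 5 down, and 33 of 35 calls were kept. The replicate numbers were not taken to pair the libraries, since deviations of same-numbered libraries correlated at 0.04, -0.00349 and 0.08, and *mdf-1* replicate 1 correlated best with WT replicate 2. DESeq2 also kept 33 of 35 calls, and total counts kept 27. *RPN12B* and *PAC2*, the tested members with the fewest reads, are the members whose values depth limits most.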
